A study of Mus musculus with 8 samples.

Results

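Open chromatin far from genes was examined in bone marrow stromal cells of mice. The regions described here are merged ATAC-seq peaks on chromosomes 1 to 19 that were called in 1 to 6 of 7 libraries and whose centre lay more than 100 kb from every annotated transcription start site. There were 2049 such regions, called members below, among 50683 merged regions in all and among 41426 regions called in 1 to 6 libraries on the same chromosomes (4.95%). A further 35 regions at this distance were called in all 7 libraries and were not members. ATAC-seq uses the transposase Tn5, which cuts accessible DNA and inserts sequencing adapters there. All libraries and the Input control came from wild-type mice of 6 weeks, whose strain the labels give as C57BL/6J and the study's methods as C57BL/6JJcl. The study sorted bone marrow stromal cells into subpopulations, but the labels do not say which population a title stands for, so the libraries are named ATAC1 to ATAC7. Each title had 1 library, and no comparison between titles has a replicate. In such bulk libraries, fewer cells with an open region and a less open region in every cell cannot be told apart.

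Much of a mammalian genome lies far from any start site, and long stretches without genes are called gene deserts. Enhancers, which are short accessible elements bound by transcription factors, can act on a promoter over very long distances, and those of developmental regulators often lie in such stretches. An accessible region at this distance has no assigned target, and the genes on either side are named here by position only.

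Peak lists held between 15188 peaks in ATAC7 and 32280 in ATAC2, and 3891 of the 164103 peaks fell in members. Promoter peaks (centre within 1 kb of a start site) were present at 4 to 11 of 20 stromal marker genes per library, at 4 to 11 of 19 annotated haematopoietic markers and at 0 to 6 of 20 endothelial markers. ATAC4 had such a peak at 4 stromal and 7 haematopoietic markers, ATAC3 at 5 and 7, ATAC1 at 7 and 7, ATAC5 at 10 and 11, ATAC6 at 9 and 7, ATAC7 at 8 and 4, and ATAC2 at 11 and 5. The promoters of the stromal markers *Ebf3*, *Foxc1* and *Nt5e* had a peak in every library, as did those of *Runx1* and *Tfrc* from the haematopoietic list, and *Ptprc*, the pan-leukocyte gene, had a promoter peak in ATAC1, ATAC3, ATAC5 and ATAC7. The study's sorting gate selected cells negative for CD45, the product of *Ptprc*, for CD31, found on endothelial cells, and for an erythroid marker. *Cxcl12*, a gene of the stromal list, had a promoter peak in ATAC2 and ATAC5 only. By the study's account, *Cxcl12* expression was not observed in the population it sorted. *Col1a1*, a bone collagen gene, had no promoter peak in ATAC4. What these differences between libraries contribute to the results below was not tested.

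The sequences of 7 members are shown because they carry the letters whose frequency is compared below, among them AP-1, C/EBP and GATA, and because 1 of them reads as a repeated gene. They are the best-ranked member of each library and some called in the most libraries, read 5′ to 3′ from the forward strand of mm9 as up to 300 bases about the centre. Capitals mark matches, on either strand, to the letters of 6 motifs. AP-1 was searched as TGANTCA, C/EBP as TTGCNNAA and the GATA factors as AGATAA. The E-box was searched as CAGCTG, ETS as CCGGAA and the nuclear receptor site as AGGTCA.
*Klhl29* intron, chr12:5183775-5184074 (AP-1, E-box, nuclear receptor): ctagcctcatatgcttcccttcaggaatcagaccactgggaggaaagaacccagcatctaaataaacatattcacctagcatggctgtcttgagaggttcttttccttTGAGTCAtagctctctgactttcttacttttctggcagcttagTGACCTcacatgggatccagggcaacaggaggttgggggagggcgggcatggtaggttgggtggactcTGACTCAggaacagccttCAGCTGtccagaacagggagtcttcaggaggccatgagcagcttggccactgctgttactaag
*Hivep3* intron, chr4:119605524-119605823 (AP-1): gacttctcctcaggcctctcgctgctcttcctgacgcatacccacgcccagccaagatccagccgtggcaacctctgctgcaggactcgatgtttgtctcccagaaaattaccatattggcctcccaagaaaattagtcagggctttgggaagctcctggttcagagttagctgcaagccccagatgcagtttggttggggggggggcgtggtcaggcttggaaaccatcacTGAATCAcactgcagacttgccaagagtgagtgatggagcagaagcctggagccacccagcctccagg
*Trps1* to *Eif3h*, chr15:51423989-51424288 (C/EBP): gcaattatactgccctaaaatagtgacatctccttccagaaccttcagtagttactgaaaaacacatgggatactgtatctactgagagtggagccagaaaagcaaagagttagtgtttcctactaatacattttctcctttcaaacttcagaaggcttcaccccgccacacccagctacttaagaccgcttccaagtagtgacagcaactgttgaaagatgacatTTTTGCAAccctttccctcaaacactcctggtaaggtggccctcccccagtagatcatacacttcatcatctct
*Eea1* to *Btg1*, chr10:95795765-95796064 (C/EBP, E-box): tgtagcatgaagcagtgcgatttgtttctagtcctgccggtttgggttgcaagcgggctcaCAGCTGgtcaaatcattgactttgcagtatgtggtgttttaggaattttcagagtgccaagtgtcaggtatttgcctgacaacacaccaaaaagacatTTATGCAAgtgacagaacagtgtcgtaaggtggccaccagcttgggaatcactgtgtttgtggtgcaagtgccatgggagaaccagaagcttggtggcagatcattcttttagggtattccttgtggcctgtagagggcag
*Fam92b* to *Gse1*, chr8:122895768-122895909 (GATA): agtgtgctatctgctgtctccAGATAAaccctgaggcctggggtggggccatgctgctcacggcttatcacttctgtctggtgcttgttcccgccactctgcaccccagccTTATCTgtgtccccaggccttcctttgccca
*Rps24* to *Zmiz1*, chr14:25598681-25598980 (E-box): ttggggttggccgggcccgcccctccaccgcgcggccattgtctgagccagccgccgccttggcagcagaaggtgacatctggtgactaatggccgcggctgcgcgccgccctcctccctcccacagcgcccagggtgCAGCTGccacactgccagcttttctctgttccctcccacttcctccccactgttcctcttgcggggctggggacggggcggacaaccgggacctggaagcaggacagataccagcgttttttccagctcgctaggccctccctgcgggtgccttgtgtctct
Start of chromosome 6, before *Samd9l*, chr6:3151466-3151597 (ETS): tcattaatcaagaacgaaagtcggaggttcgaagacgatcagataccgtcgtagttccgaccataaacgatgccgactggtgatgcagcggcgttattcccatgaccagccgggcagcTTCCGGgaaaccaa

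The *Trps1* to *Eif3h* region was the best-ranked member of ATAC7 and was called in every library but ATAC6. It lay at chr15:51423801-51424475, outside every gene body, 703 kb from *Trps1*, a GATA-type zinc finger repressor needed for skeletal growth, and 273 kb from *Eif3h*, a subunit of a translation initiation factor. The outer region of its peak held 793 library reads against 26 Input reads in ATAC5, 680 against 24 in ATAC2, 412 against 18 in ATAC7, 375 against 13 in ATAC1, 207 against 14 in ATAC3 and 89 against 7 in ATAC4. The authors' fold over Input, a scaled ratio of these reads, was 52.2 in ATAC5, 44.7 in ATAC2, 35.4 in ATAC1, 25.3 in ATAC7, 14.9 in ATAC3 and 14.4 in ATAC4. The signal was thus spread over libraries of both high and low peak number.

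The regions in introns of *Klhl29* and *Hivep3* had their highest fold in different libraries. The *Klhl29* region was the best-ranked member of ATAC2, at rank 3328 of that list, with 382 library reads and a fold of 15.1. Its fold was 12.5 in ATAC5, 8.07 in ATAC6, 3.16 in ATAC1 and 2.87 in ATAC7. The region in *Hivep3*, a zinc finger gene that acts on osteoblasts, was called in 6 libraries, with a fold of 19.6 in ATAC5, 19.6 in ATAC6, 15.9 in ATAC2, 10.1 in ATAC7, 9.68 in ATAC1 and 5.44 in ATAC3. The *Rps24* to *Zmiz1* region was called in the same 6 libraries at folds between 5.46 in ATAC3 and 12.5 in ATAC6, and the printed window had a GC content of 67.0%. Among the 42 members called in 6 libraries, 1 in an intron of the ion channel gene *Trpm3*, 150 kb from its start site, had folds between 5.13 in ATAC3 and 18.9 in ATAC5, and 1 on chromosome 18, 116 kb from *Smad2*, a mediator of TGF-beta signalling, had folds between 2.41 in ATAC7 and 6.31 in ATAC5.

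The *Gse1* region was the best-ranked member of ATAC4 and held 2 matches to the GATA letters in 142 bases. It lay outside *Gse1* but in an intron of *Gm20388*, a predicted gene model that spans many other genes. It was called in ATAC1 (fold 15.2), ATAC4 (13.2) and ATAC6 (12.9). The *Eea1* to *Btg1* region was the best-ranked member of ATAC3 (fold 15.7) and was stronger in ATAC5 (30.4) and ATAC1 (25.3) than in ATAC2 (10.8). *Btg1* is an antiproliferative gene of lymphoid and other cells, and 10 members lay between it and *Eea1*. Of these, 8 were called in ATAC1 and 2 in ATAC2, which held 20.4% and 61.2% of all members.

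The entry at the start of chromosome 6 stood apart from other members in its rank and reads in ATAC6. It was the best-ranked member in ATAC1, ATAC5 and ATAC6, and in ATAC6, where its rank was 68, it was the only member among the best-ranked 10% of any list. It held 963 library reads and 74 Input reads in ATAC6, 248 and 68 in ATAC5, and 215 and 71 in ATAC1, whereas the median member peak of these lists held 10 to 11 Input reads and the highest held 71 in ATAC1, 68 in ATAC5 and 88 in ATAC6. The printed bases resemble those of the 18S ribosomal RNA gene, a statement from general knowledge, since no annotated copy was compared. They matched 5 other places of the genome over at least 80% of their length at 83.3% to 94.7% identity, and none of these places was called in any library. With 2000 bases added on each side, no other member matched this stretch. The other 6 printed sequences had no such second place. After this entry, which was passed over once its values were seen, the best-ranked members were a region between *Eea1* and *Btg1* in ATAC1 (rank 7354, fold 17.2), 1 between *Gm10797* and *Zfp365* in ATAC5 (rank 5919, fold 22.5) and 1 between *Zeb1* and *Arhgap12* in ATAC6 (rank 6148, fold 17.2).

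The libraries held the members unequally. ATAC2 held 1255 of the 2049 (61.2%, 95% Wilson interval 59.1 to 63.3), against 51.2% of the 26732 nearer distal regions, which lay 1 to 100 kb from a start site, and 50.1% of all regions called in 1 to 6 libraries. ATAC5 held 972 (47.4%, 45.3 to 49.6; 49.6% of nearer regions, 49.9% of all), and ATAC6 held 729 (35.6%, 33.5 to 37.7; 43.2% and 44%). ATAC1 held 418 (20.4%, 18.7 to 22.2), against 29.2% of nearer and 32.7% of all regions. ATAC7 held 176 (8.59%, 7.45 to 9.88; 9.61% and 12.8%), ATAC3 held 122 (5.95%, 5.01 to 7.06; 9.26% and 13.8%) and ATAC4 held 73 (3.56%, 2.84 to 4.46; 8.40% and 13.4%). ATAC2 was the only library with a larger share of members than of nearer regions. The intervals cover counting error only, and regions are not replicates.

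**Figure D1:**
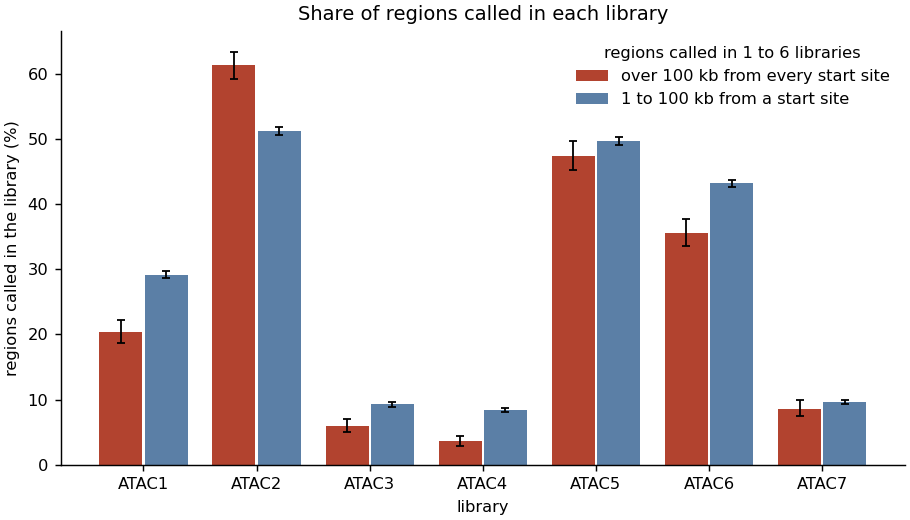
Percent of regions called in each of the 7 libraries, for members (red, n = 2049) and for regions 1 to 100 kb from a start site (blue, n = 26732); bars start at 0 and error bars are 95% Wilson intervals. The red bar stands above the blue one in ATAC2 (61.2% against 51.2%) and below it in the other 6 libraries.

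Read the other way, members made up 6.05% of the ATAC2 regions called in 1 to 6 libraries (5.73 to 6.38), 4.70% in ATAC5, 3.997% in ATAC6, 3.33% in ATAC7, 3.09% in ATAC1, 2.14% in ATAC3 and 1.32% in ATAC4 (1.05 to 1.66). Because the lists differed in length, this was repeated with the 15188 best-ranked peaks of each. The share of members then was 4.45% in ATAC2, 3.04% in ATAC7, 2.92% in ATAC5, 2.57% in ATAC6, 1.67% in ATAC1, 1.66% in ATAC3 and 1.24% in ATAC4, so that ATAC2 remained highest and ATAC4 lowest. In this setting 616 members were left, and ATAC7 held 31.0% of them against 30.8% of nearer regions.

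Most members were called in 1 library. These numbered 1168 (57.0%, 54.8 to 59.1), against 51.5% of nearer regions and 49.1% of all regions called in 1 to 6 libraries. Another 397 were called in 2 libraries, 288 in 3, 103 in 4, 51 in 5 and 42 in 6. ATAC2 alone accounted for 552 members, ATAC5 alone for 318, ATAC1 alone for 152 and ATAC6 alone for 118, while ATAC3, ATAC4 and ATAC7 alone accounted for 12, 8 and 8. With lists of equal length these counts were 120 for ATAC2, 65 for ATAC7, 42 each for ATAC1 and ATAC5, 31 for ATAC6, 25 for ATAC3 and 18 for ATAC4. The most frequent pattern of several libraries was ATAC2, ATAC5 and ATAC6 together, in 215 members (10.5%; 9.22% of nearer regions). Members called only in libraries among these 3 numbered 1498 (73.1%; 63.3% of nearer and 56.7% of all regions). Members in none of the 3 numbered 204 (9.96%; 13.8% of nearer and 15.3% of all), and 90.0% were called in at least 1 of them, against 84.7% of all regions. With lists of equal length, 46.1% of members and 35.8% of nearer regions were called only in these 3, and 69.6% of members were called in at least 1 of them against 65.8% of nearer regions.

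The name gene desert held in part. The centre of 1477 members (72.1%, 70.1 to 74.0) lay outside every annotated gene body, against 45.2% of nearer regions, while 558 (27.2%) lay in an intron and 14 (0.683%) in an exon. The bodies of 237 genes held a member. *Gm20388*, a predicted gene model of 4435 kb, held 22 members, *Gpc6*, a cell surface heparan sulfate proteoglycan, held 17 in 1054 kb, and *Rad51l1* held 14 in 506 kb. *Hivep3* held 11, and *Adcy2*, an adenylyl cyclase, held 9.

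Distances to the nearest start site ran from 100.0015 to 869.0 kb with a median of 148.2 kb. There were 539 members beyond 200 kb (26.3%), 176 beyond 300 kb, 61 beyond 400 kb and 24 beyond 500 kb. The farthest, at chr3:42860415-42860591, was called in ATAC6 alone (54 library and 4 Input reads, fold 21.2), with *Pcdh10*, a protocadherin, 2322 kb away on the right. The next was at chr7:84276918-84277164, 721 kb from *Agbl1*, in ATAC2 alone (fold 13.9). The next was at chr14:81057042-81057487, 657 kb from *Olfm4*, and it was called in ATAC2 (fold 27.8) and ATAC6 (fold 19.9). At the limit of the rule, the nearest members lay beside *Mki67*, the proliferation marker, in ATAC4 (100001.5 bases) and between *Etnk1* and *Sox5* in ATAC6 (100007.5 bases). The nearest regions outside the limit lay at 99982 bases on chromosome 13 in ATAC6 and at 99970 bases on chromosome 18 in ATAC2 and ATAC6.

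**Figure D2:**
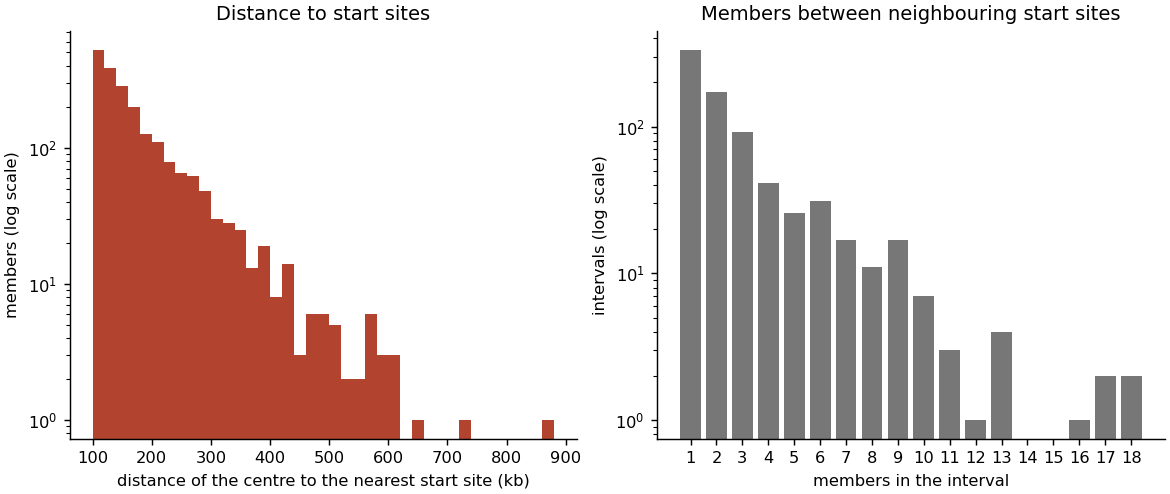
Left, number of members by distance of the centre to the nearest start site in 20-kb bins; right, number of intervals between neighbouring start sites by the members they held; both vertical axes are logarithmic. Numbers fall with distance from the limit of 100 kb, the farthest member lies at 869.0 kb, and 334 intervals held 1 member while 20 held at least 10.

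Members were sparser than nearer regions along the genome. Bases more than 100 kb from every start site summed to 546.9 Mb (22.8% of the sequenced bases of chromosomes 1 to 19) and held 3.75 members per Mb, whereas nearer distal bases held 15.3 regions per Mb. Chromosome 13 had 225 members (7.44 per Mb) and chromosome 11 had 14 (1.29 per Mb). Of 2404 intervals between neighbouring start sites that reached this distance, 762 (31.7%) held a member, and 83.7% of members shared their interval with another. The 122 intervals with at least 5 members held 929 of them (45.3%). Long intervals did not always hold members, and 36 of the 69 intervals with at least 1 Mb of such bases held none. Among them were the interval that ends at *Dusp26* and 1 whose nearest protein-coding gene on the right is *Sis*.

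The fullest intervals were those of *Rad51l1* to *Zfp36l1* and *Irf2bp2* to *Tomm20*, with 18 members each. *Zfp36l1* encodes a protein that promotes mRNA decay, and 4 of the 18 members beside it lay outside gene bodies. *Irf2bp2* encodes a transcriptional corepressor and *Tomm20* a receptor of mitochondrial protein import. Their interval had only 151.5 kb of eligible bases, and 12 of its members were called in ATAC1, 9 in ATAC5, 8 in ATAC2, 6 in ATAC6, 4 in ATAC3, 2 in ATAC4 and 1 in ATAC7. ATAC1 thus held 12 of the 18 members there but 20.4% of members overall. The interval of *Thap1* to *Zfp703*, a transcriptional repressor, held 17, of which 12 were in ATAC5 and 11 in ATAC2. The interval from *Gpc6* to *Dct* held 17, all in the body of *Gpc6*, and 11 of them were in ATAC2. The interval from *Serp2* to *9030625A04Rik* held 16, of which 10 were in ATAC2. By density, the highest among intervals with at least 3 members were *Serpine2* to *Fam124b* (3 members in 11.96 kb), *Oxgr1* to *Mbnl2* (5 in 33.2 kb, all 5 in ATAC2) and *Mab21l2* to *Dclk2* (6 in 48.1 kb). ATAC2 held 61.2% of all members.

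Member peaks lay mostly in the later ranks of their lists, as nearer distal peaks did. Ranks are the authors' order of a list, expressed here as a percentile with 100 for the last peak. Peaks of members in the better-ranked 50% of their list made up 25.5% in ATAC2, 22.6% in ATAC5, 20.03% in ATAC6, 10.4% in ATAC1, 4.42% in ATAC7, 2.74% in ATAC4 and 2.40% in ATAC3. The median percentile of member peaks was 70.2 in ATAC2 against 67.2 for nearer peaks, and 69.9 against 69.6 in ATAC6. Median library reads per peak lay between 67 in ATAC4 and 81 in ATAC5, and median Input reads between 9 and 11.

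Each library was compared with itself, member peaks against nearer distal peaks, and the 7 differences were tested by an exact two-sided sign-flip permutation test with Benjamini-Hochberg adjustment over 7 measures. The smallest p this design allows is 0.0156. The libraries share 1 Input and many regions and are not fully independent. The median log2 fold over Input was 3.72 in ATAC2 and ATAC5, 3.57 in ATAC6, 3.16 in ATAC1, 3.11 in ATAC7, 3.10 in ATAC4 and 2.73 in ATAC3. It was higher than in nearer peaks in 7 of 7 libraries, by 0.29 ± 0.11 (mean ± SD of the library differences, n = 7; exact p = 0.0156, adjusted p = 0.0219). Library reads per 1000 bases of the outer region were lower in 7 of 7, with a mean of the medians of 232 against 251 (difference -18.4 ± 8.21; adjusted exact p = 0.0219). Input reads per 1000 bases were lower in 7 of 7 as well, at 30.8 against 40.3, and in members ran from 26.6 in ATAC2 to 37.2 in ATAC3 (difference -9.53 ± 3.28; adjusted exact p = 0.0219).

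Rank was worse in 7 of 7 libraries, at a mean percentile of 78.7 against 75.6 (difference 3.16 ± 1.79; adjusted exact p = 0.0219), though by only 0.27 in ATAC6. With lists of equal length the difference was 2.42 (adjusted exact p = 0.0729). Regions had a lower GC content in 7 of 7, at 48.9% against 51.2% (-2.30 ± 0.50 percentage points; adjusted exact p = 0.0219). Width was greater in 5 of 7 libraries (11.9 ± 13.2 bases; adjusted exact p = 0.0729) and the share called in that library only was greater in 5 of 7 (2.31 ± 4.65 percentage points; adjusted exact p = 0.234), and neither passed 0.05. For members beyond 200 kb both did, at 27.4 bases and 6.91 points (adjusted exact p = 0.0312 for each). Among regions of 45% to 55% GC, an alternative chosen after the data were seen, the difference in log2 fold was 0.11 and no longer passed (adjusted exact p = 0.0656), nor did that in rank (3.21, higher in 6 of 7 libraries; adjusted exact p = 0.0547), while library and Input reads stayed lower in 7 of 7 libraries.

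**Figure D3:**
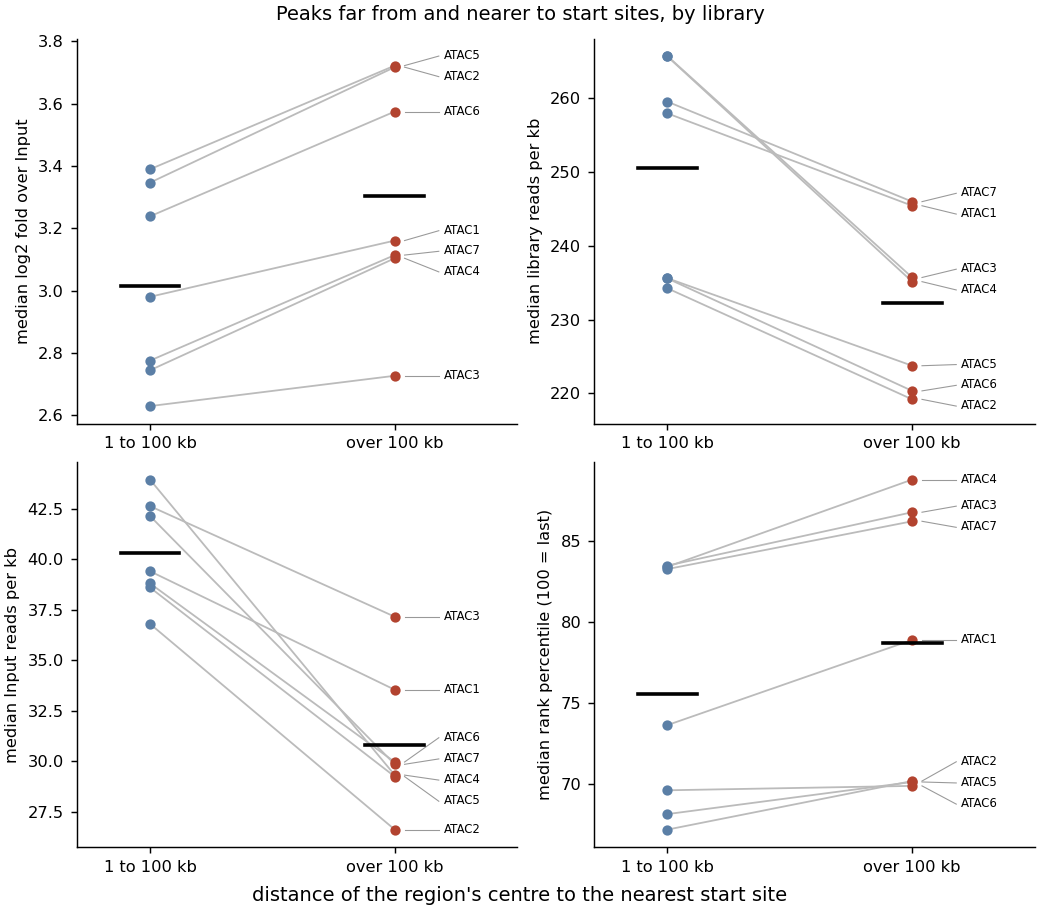
Median log2 fold over Input, library reads per kb, Input reads per kb and rank percentile of peaks, 1 point per library, for regions 1 to 100 kb from a start site (blue) and members (red); grey lines join a library with itself and black bars are means over 7 libraries. Axes do not start at 0. Fold and rank percentile rise and both read densities fall in each of the 7 libraries.

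Motif letters were counted in the 300 bases about the centre of each region, on both strands, and the shares in members were compared with those in nearer distal regions of the same library. AP-1 letters, the site of the JUN and FOS factors, were found in 780 members (38.1%, 36.0 to 40.2) against 29.7% of nearer regions. By library the share in members was 42.8% in ATAC6, 42.4% in ATAC2, 40.9% in ATAC7, 39.3% in ATAC5, 38.5% in ATAC3, 27.4% in ATAC4 and 25.1% in ATAC1. It was higher than in nearer regions in 7 of 7, by 6.57 ± 2.68 percentage points (adjusted exact p = 0.0469 over 12 motifs). Against regions 20 to 100 kb from a start site the difference was 2.04 points (adjusted exact p = 0.225), and for members beyond 200 kb it was 2.44 (adjusted exact p = 0.648). C/EBP letters, the site of a leucine zipper family active in myeloid cells and adipocytes, were found in 357 members (17.4% against 13.7%). They were more frequent in 7 of 7 libraries, by 6.34 ± 1.66 points (adjusted exact p = 0.0469), from 16.1% of members in ATAC2 to 25.4% in ATAC3. Beyond 200 kb the difference was 13.5 points (adjusted exact p = 0.0625).

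ETS letters (CCGGAA), common in promoters, were found in 88 members (4.29% against 6.22%) and were rarer in 7 of 7 libraries, by a mean of 3.63 points (difference -3.63 ± 1.41; adjusted exact p = 0.0469). Beyond 200 kb the ETS difference was -2.16 points (adjusted exact p = 0.0938). CTCF letters (CNAGGGGGC), part of the site of the insulator protein, were found in 24 members (1.171% against 2.42%), with a difference of -1.52 ± 0.79 points (lower in 7 of 7; adjusted exact p = 0.0469). The CTCF call was lost beyond 200 kb (-2.33 points) and in a 200-base window (-0.97 points; adjusted exact p = 0.0625 for each), and with a limit of 50 kb (-0.75 points; adjusted exact p = 0.141). None of the 73 ATAC4 members held them, which allows a share of up to 4.11%. The other 8 motifs did not pass 0.05. They were RUNX (TGTGGTT; 12.8% of members), GATA (9.91%), SOX (AACAAAG; 6.44%), EBF (CCCNNGGG; 7.76%), the E-box (20.9%), TEAD (GGAATG; 19.3%), homeobox (TAATTA; 7.32%) and the nuclear receptor site (18.98%), with adjusted exact p between 0.0625 for EBF and TEAD and 0.875 for GATA and the E-box. Matches to different motifs can overlap.

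The share with GATA letters differed between libraries. They were found in 16.4% of ATAC4 members and 15.8% of ATAC1 members, against 7.89% to 9.84% in the other 5 libraries, and ATAC1 and ATAC4 were also the lowest for AP-1. In nearer regions they were found in 23.7% for ATAC4 and 16.2% for ATAC1. Among the 204 members in none of ATAC2, ATAC5 and ATAC6, 20.1% held GATA and 19.6% AP-1 letters, while among the 1498 in these libraries only, 8.34% held GATA and 41.5% AP-1 letters. These shares have no test, since a title has 1 library. GC content moved with distance, at 48.0% against 50.6% in the medians over all regions, and within 45% to 55% GC no motif passed 0.05 (AP-1 5.54 points, higher in 6 of 7 libraries, and C/EBP 4.47, ETS -3.08 and CTCF -1.23 points, each with the same sign in 7 of 7; adjusted exact p = 0.0625 for each). C/EBP, ETS and CTCF kept an unadjusted exact p of 0.0156, the smallest this design allows. Whether they passed thus depended on how many other motifs reached that p. The band did not make GC equal, since it stayed lower in members in 7 of 7 libraries (-0.63 points).

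**Figure D4:**
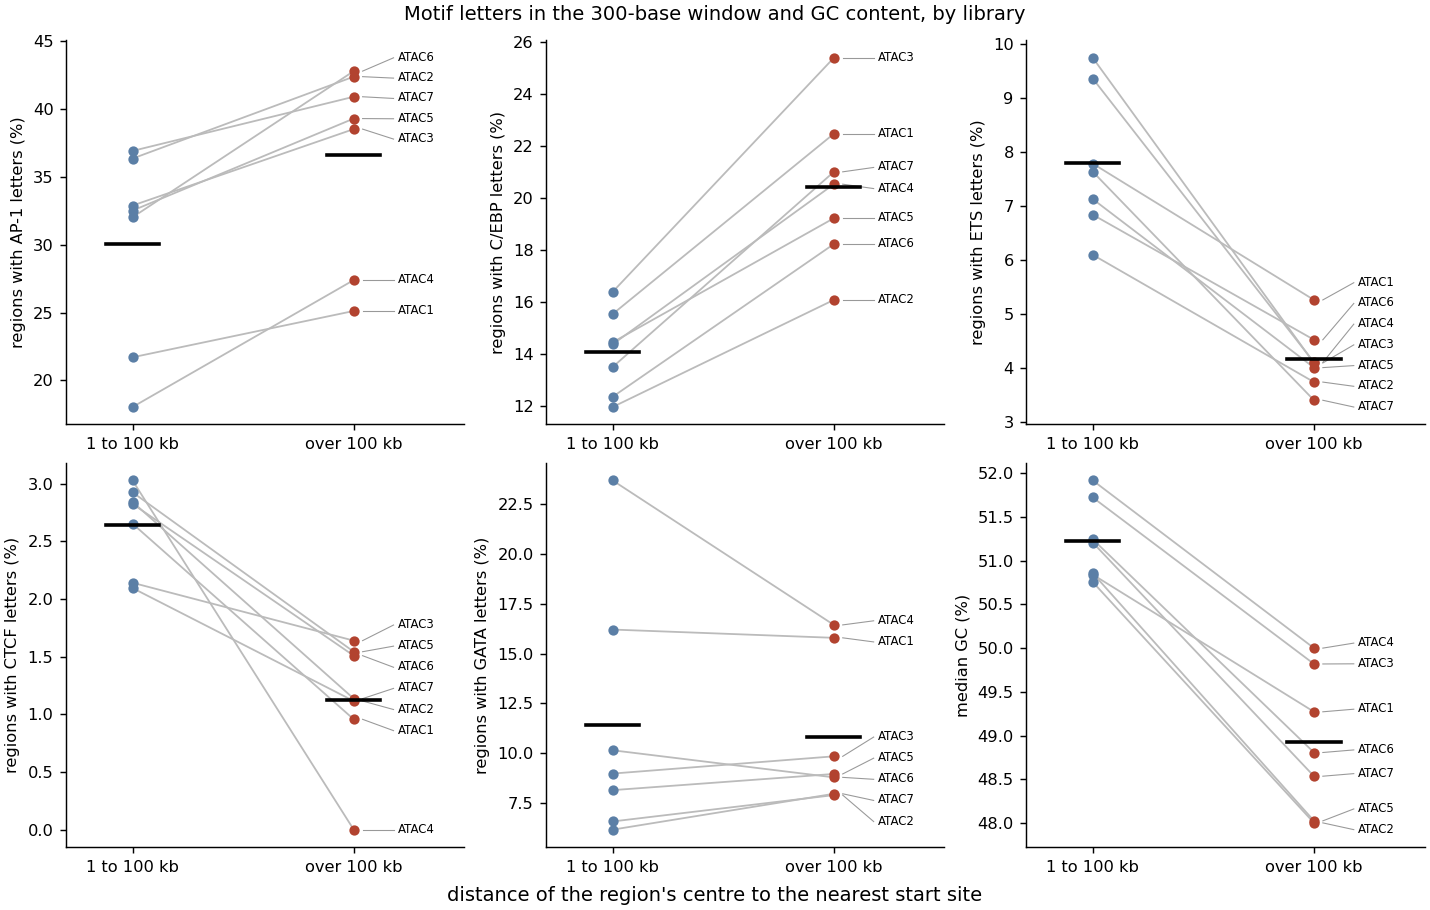
Percent of regions with a match to the AP-1, C/EBP, ETS, CTCF or GATA letters in the 300-base window, and median GC percent, 1 point per library, for regions 1 to 100 kb from a start site (blue) and members (red); grey lines join a library with itself and black bars are means over 7 libraries. Axes do not start at 0. AP-1 and C/EBP rise and ETS, CTCF and GC fall in 7 of 7 libraries, while for GATA the libraries ATAC1 and ATAC4 stand above the rest at both distances.

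Genes on both sides of the members were taken as the nearest protein-coding start site on the left and on the right. Of 2737 protein-coding genes that could flank a member, 1269 (46.4%) did so. Among skeletal and mesenchymal transcription factors 19 of 30 did (63.3%, 45.5 to 78.1), among haematopoietic transcription factors 12 of 17 (70.6%, 46.9 to 86.7), among secreted signals, inhibitors and matrix genes 17 of 27 (63.0%, 44.2 to 78.5) and among neuronal adhesion and synapse genes 32 of 49 (65.3%, 51.3 to 77.1). The median number of members per gene was 2 for the skeletal list, 1 for the other 3 lists and 0 over all genes that could flank. Genes of the neuronal list border much longer stretches, and per eligible Mb the order was different. There were 10.4 members per Mb beside haematopoietic factors, 6.98 beside skeletal factors, 6.01 beside signals and matrix genes and 1.05 beside genes of the neuronal list, against 3.75 overall. Of the 63 members beside haematopoietic factors, 16 lay beside *Id2*, 13 beside *Runx1* and 9 beside *Foxo1*. These genes had 0.919, 0.362 and 0.143 of the 6.07 eligible Mb of that list. Of the marker lists, 2 of 3 haematopoietic, 1 of 3 endothelial and 4 of 10 stromal markers that could flank a member did so. The lists were written with earlier results of these data known and were not tested for enrichment.

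*Trps1* flanked the most members, 23, of which 15 were called in ATAC5, 13 in ATAC2, 11 in ATAC6, 8 in ATAC1, 7 in ATAC7, 4 in ATAC4 and 3 in ATAC3. They lay 107 to 842 kb from its start site, 13 towards *Eif3h* and 10 towards *Csmd3*. Eligible bases beside *Trps1* summed to 2.27 Mb, against 0.152 Mb beside *Irf2bp2*, which flanked 18. *Gli3*, a transcription factor of the hedgehog pathway that patterns limbs, flanked 14, of which 9 were in ATAC2, 9 in ATAC5 and 8 in ATAC6, with 0 in ATAC4. *Mef2c*, a MADS-box factor of muscle, bone and blood cells, flanked 11, of which 5 were in ATAC1, 5 in ATAC5 and 3 in ATAC2. *Runx2*, the master factor of osteoblasts, flanked 7 at 218 to 498 kb, with 4 in ATAC5, 3 in ATAC2, 3 in ATAC6, 1 in ATAC1 and 1 in ATAC7. *Shox2* flanked 7 and *Sox6*, a chondrocyte factor, flanked 5. All 4 members beside *Osr1* were called in ATAC2 and in no other library, as were 26.9% of all members.

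Among haematopoietic factors, *Id2*, an inhibitor of basic helix-loop-helix factors, flanked 16 members, with 10 in ATAC2, 8 in ATAC6, 6 in ATAC1 and 6 in ATAC5. Of the 16, 6 were in none of ATAC2, ATAC5 and ATAC6, against 9.96% of all members. *Runx1*, required for the emergence of blood stem cells, flanked 13, all between it and *Setd4* and outside gene bodies. Of these, 7 were in ATAC5, 6 in ATAC2, 6 in ATAC6, 2 in ATAC1, 1 in ATAC4 and 0 in ATAC3 and ATAC7. *Foxo1*, a factor controlled by insulin signalling, flanked 9 within 231 kb, with 7 in ATAC5 and 7 in ATAC6. *Myc*, a driver of cell growth, flanked 7 at 341 to 1353 kb, with 5 in ATAC5 and 4 each in ATAC2, ATAC6 and ATAC7, and *Satb1* and *Sox4* flanked 5 and 4. The 4 beside *Sox4* were all in ATAC2, which held 61.2% of all members.

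In the list of secreted signals, inhibitors and matrix genes, *Bmp2*, an inducer of bone formation, flanked 9, all towards *Hao1*. Of these, 5 were in ATAC2, 4 in ATAC6 and 0 in ATAC1 and ATAC3. Of the 9, 7 were called in 1 library, as were 57.0% of all members. *Inhba*, a subunit of activin, flanked 7, *Fgf10* 6 and *Tgfb2* 6. All 6 members beside *Tgfb2* and all 6 beside *Tnc*, which encodes the matrix protein tenascin C, were called in ATAC2. ATAC2 held 61.2% of all members. Of those beside *Tnc*, 3 were also in ATAC5, 1 in ATAC6 and 0 in the other 4 libraries. *Col12a1*, *Dcn* and *Sfrp2*, which encode a collagen, the proteoglycan decorin and a Wnt inhibitor, flanked 4 each. *Cxcl12*, the chemokine that retains blood stem cells in the marrow, flanked 2 members at 188 kb, 1 in ATAC2 and 1 in ATAC6.

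In the list of neuronal adhesion and synapse genes, *Gpc6* flanked 18 members (11 in ATAC2), *Csmd3* 10, *Robo2* 10, *Robo1* 9 and *Pcdh17* 9. *Gpc6* encodes the heparan sulfate proteoglycan named above, and 0 of its 18 members lay outside gene bodies. *Robo1* and *Robo2* encode receptors of Slit, and 6 of 9 and 7 of 10 of their members were in ATAC2, which held 61.2% of all members. Of the 9 beside *Pcdh17* 8 were in ATAC2, at 1485 to 4228 kb. *Lmo4*, a LIM-only cofactor, flanked 18 members outside these lists, of which 17 lay outside gene bodies. The retinoid and thyroid hormone receptor genes, *Rarb* and *Thrb*, enclosed 8 members, named here after their values were seen, and all 8 were called in ATAC2, 2 in ATAC5 and 2 in ATAC6. Counts of a few regions per gene carry wide counting error, and they were not divided by the eligible length beside the gene, which differed between genes.

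**Figure D5:**
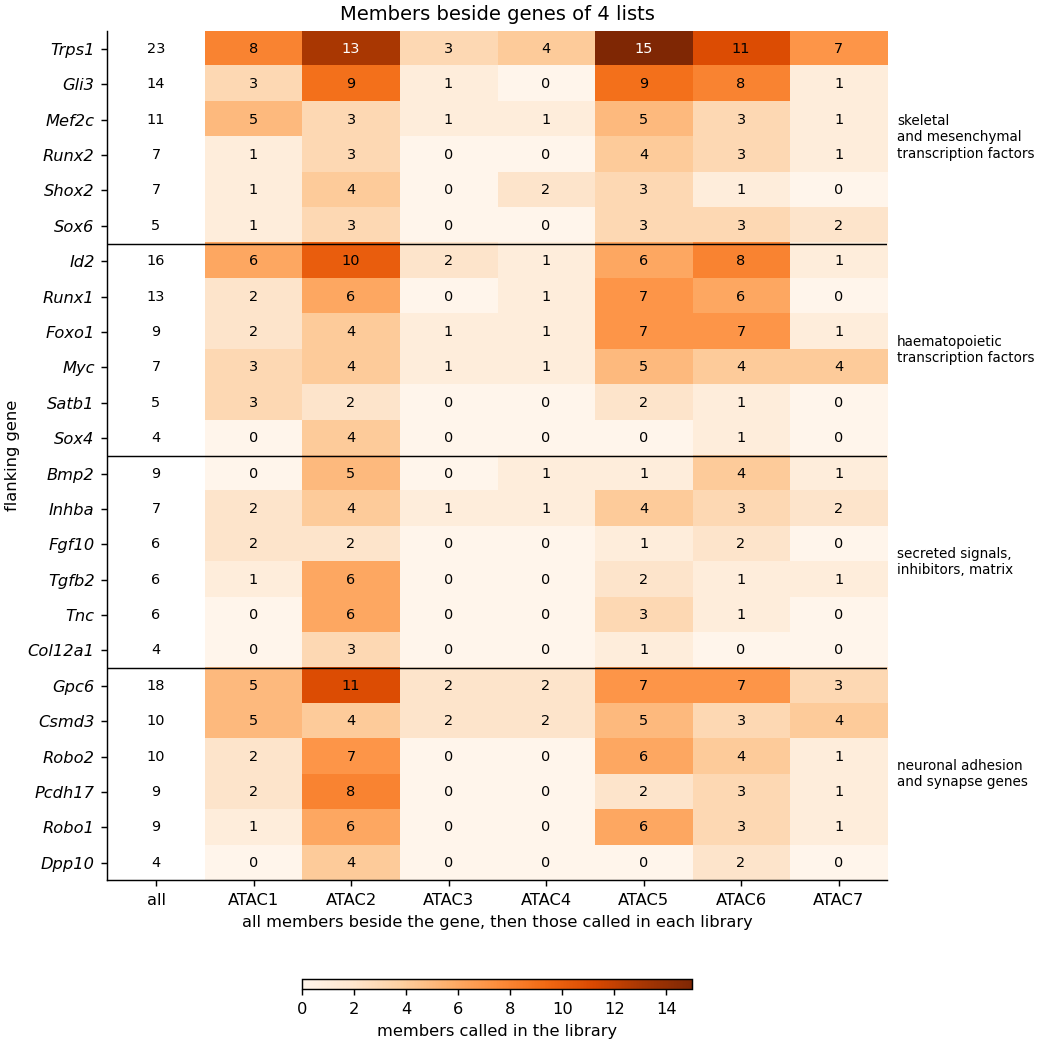
Number of members beside each of 24 flanking genes, the 6 genes with the most members of each of 4 lists, in all (white column) and called in each of the 7 libraries (shaded). *Trps1* has the most, 23, and the columns of ATAC3 and ATAC4 hold 0 for many genes that have members in ATAC2.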

How the data were processed

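ATAC-seq was measured in 7 libraries of bone marrow stromal cells, with 1 Input library as control. Per the study's methods, bowtie placed the reads on mm9, and CisGenome then compared every library with Input to call peaks, and a table was deposited for each library. A correction of read ends for Tn5 and a removal of duplicate reads are not given in the sources used here. The first bears on peak borders and the second on read counts. The deposited tables hold, per peak, read counts (whole numbers) for both the library and Input over the outer region, the authors' fold over Input (a ratio of scaled library reads to Input reads plus 0.01) and non-negative signal columns of the peak caller, which served only as the rank. The offset inflates the fold where Input has 0 reads, which concerned a peak of 28 members (1.37%, against 0.475% of nearer regions). Total reads per library were not used here, so depth is given per peak. The separate coordinate lists repeat the tables and were not used.

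Peaks sharing at least 1 base were merged. Distances ran from a region's centre to 95495 transcript start sites of GENCODE vM1 on NCBIM37, the build mm9, and 0 peaks ran past a chromosome end. Nearer distal regions lay over 1000 and at most 100000 bases from a start site. Shares have 95% Wilson intervals. Library differences were tested by exact sign-flip permutation with Benjamini-Hochberg adjustment, 7 measures and 12 motifs forming a family each. Within 50 bases or more at 80% identity or more, 0 of 2049 members matched the mitochondrial genome (blastn 2.17.0), and 0 member windows mapped with quality 0 (minimap2 2.31). A count of 0 (3 counts as the limit) allows up to 0.146%. Python 3.11.15, numpy 2.4.6, pandas 2.3.3, scipy 1.17.1, statsmodels 0.14.6, pysam 0.24.0, samtools 1.23.1 and matplotlib 3.10.9 were used. On simulated data, 513 of 513 planted members and 600 of 600 planted motifs were recovered, and 4.1% of sets of noise gave p of 0.05 or less.

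The named regions are the best-ranked member of each library, the 5 called in the most libraries, the 3 farthest, those next to the limit, the 5 fullest and 3 densest intervals, and genes are their flanks, the 10 with the most members and up to 8 per list. A member on chromosome 18 is described without its sequence. Some named items are not reported here. Members and lists were chosen with earlier results of these data known. Alternatives were a fold of at least 5, lists of equal length, merging within 500 bases, limits of 50 and 200 kb, protein-coding start sites, all 7 libraries, 0-Input regions left out, nearer regions from 20 kb, a window of 200 bases, each library left out, and a GC band.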

Additional observations from a re-analysis of the deposited data

Results flagged for a closer look

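In 2 of the 19 differences between members and nearer distal regions, 1 library lay far from the other 6 by Dixon's test, which flags about 1 in 20 groups by chance. For GATA letters, ATAC4 differed by -7.26 percentage points, and the next lowest library by -1.36. For homeobox letters, ATAC4 differed by 4.56 points, and the next highest library by 1.30. Both values rest on the 73 members called in ATAC4, and neither motif passed 0.05 over the 7 libraries.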

How the results depend on the processing

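The number of members was 616 with lists of equal length, 539 beyond 200 kb, 5273 beyond 50 kb and 4098 with protein-coding start sites only. The percent of members in 1 library was 52.1% with merging within 500 bases, 61.6% beyond 200 kb and 54.7% beyond 50 kb. The percent in ATAC2, ATAC5 or ATAC6 was 69.6% with equal lists and 91.5% with merging. The percent outside gene bodies was 74.2% with equal lists, 81.6% beyond 200 kb, 64.5% beyond 50 kb and 66.9% with protein-coding start sites. The percent sharing an interval was 69.6% with equal lists, 80.1% with merging, 79.8% beyond 200 kb and 90.8% with protein-coding start sites. The median over libraries of the percent of regions that are members (3.33%) was 2.57% with equal lists, 4.54% with merging, 0.794% beyond 200 kb, 8.71% beyond 50 kb, 7.13% with protein-coding start sites and 2.08% with regions called in 1 to 7 libraries. Limits of 50 kb and 200 kb were set against regions up to 50 and 100 kb.

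The 5 of 7 measures past 0.05 were 3 within the GC band, chosen after the data were seen, and 5 with any library left out. Width also passed beyond 200 kb (27.4 bases), with merging (13.5) and beyond 50 kb (6.86), and the share called in that library only passed beyond 200 kb (6.91 points). The 4 of 12 motifs past 0.05 were 0 beyond 200 kb, 9 with protein-coding start sites, 8 with regions called in 1 to 7 libraries and 0 within the GC band. They were 0 with any library left out, where 6 libraries allow no unadjusted p under 0.03125. None of the sign changes concerned a motif past 0.05. With merging, SOX was -0.00231 and the nuclear receptor -0.0503 points. Beyond 200 kb, GATA was 1.81, EBF 0.465, the E-box -3.00 and TEAD -1.91. Beyond 50 kb the E-box was -0.846, and with protein-coding start sites GATA was 0.263 and the E-box -1.20. The nuclear receptor was -0.0419 with regions called in 1 to 7 libraries and -0.271 in a 200-base window, and the E-box -0.353 against regions from 20 kb. With a library left out, the E-box ran from -0.633 to 0.647, GATA from -1.01 to 0.505 and the nuclear receptor from -0.137 to 0.937. The AP-1 difference stayed positive in 12 settings besides, from 2.04 to 11.1, and C/EBP from 3.06 to 13.5. ETS stayed negative, from -4.73 to -1.52, and CTCF from -2.33 to -0.753. The cause was not tested. The tests paired each library with itself, and a replicate block between titles could not be fitted, since a title has no numbered replicates. Depth limits weak peaks, and members had a median of 67 to 81 library reads.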
